A study of Homo sapiens with 12 samples.

Results

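The transcription and splicing factors that set the epithelial-mesenchymal state were followed as 10 named genes, ZEB1, ZEB2, SNAI1, SNAI2, TWIST1, GRHL1, GRHL2, OVOL2, ESRP1 and ELF3, matched by gene name in every library. They are 10 of the 38611 genes in the count tables. RNA was sequenced from DU145 and PC3, established human prostate cancer cell lines grown from a brain and a bone metastasis, each as the untreated parental line and as a docetaxel-resistant subline, DU145-R and PC3-R. The drug, a taxane, blocks cell division by stabilising microtubules. The sublines were raised by stepwise dose escalation, which began at 10 in DU145 and 0.5 in PC3 and ended with an IC50 of 1800 and 15, in a unit that the labels write as nm/ml without defining it. Each of the 4 groups held 3 libraries. Each resistant group is 1 subline, and the labels do not give its libraries as separate cultures. The p-values therefore cover the spread among these samples alone, and that spread may be technical. Selection in the drug and the history of 1 subline cannot be told apart.

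Cells of an epithelium hold together through E-cadherin junctions and keratins, and in the epithelial-mesenchymal switch they lose these and become motile. ZEB1, ZEB2, SNAI1 (Snail), SNAI2 (Slug) and TWIST1 are the classical drivers of the switch: the ZEB and Snail factors are zinc finger repressors that bind E-box DNA in epithelial promoters, E-cadherin (CDH1) first among them, and TWIST1 is a basic helix-loop-helix factor. Grainyhead-like factors (GRHL1, GRHL2), the zinc finger factor OVOL2 and the ETS factor ELF3 act on the epithelial side, ESRP1 sets the epithelial splice forms of transcripts such as CD44, and the microRNAs of the miR-200 family repress ZEB1 and ZEB2, which repress them in turn.

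That loop is written in sequence, so the mature miR-200 family (RefSeq, GRCh38.p14, 5′ to 3′) is shown first, with the seed, bases 2 to 8, in capitals. The family has 2 seeds. One is shared by 3 members:
hsa-miR-200b-3p: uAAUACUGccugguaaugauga
hsa-miR-200c-3p: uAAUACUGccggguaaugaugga
hsa-miR-429: uAAUACUGucugguaaaaccgu
The other seed is shared by 2 members:
hsa-miR-200a-3p: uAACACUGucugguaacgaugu
hsa-miR-141-3p: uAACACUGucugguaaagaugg

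The 3′ untranslated region of ZEB1 (chromosome 10, 2549 bases in the GENCODE v29 transcript with the longest coding sequence) held 6 matches to the first seed, CAGTATT, and 3 to the second, CAGTGTT. That of ZEB2 (chromosome 2, 5370 bases) held 5 and 4. Over 19115 such regions with a median length of 806 bases, 14.1% held CAGTATT and 15.9% held CAGTGTT at least once, and longer regions have more room for a match. The first pair of CAGTATT matches in each gene is printed with the match in capitals, named by gene and by the position of the match in the region:
ZEB1 369: ggcattgttttatcttatCAGTATTa
ZEB1 463: catatgctaaatccgcttCAGTATTt
ZEB2 392: gcccgcactaccatacatCAGTATTt
ZEB2 455: gctcgcactacaatgcatCAGTATTa
A match is a description of the sequence and not a measured site. The libraries were made from poly(A)-selected RNA, so mature microRNAs were not measured. Among host transcripts, MIR200CHG was listed at 0 counts in all 6 PC3 libraries and reached at most 0.416 CPM in DU145, and MIR205HG had counts in 1 of the 12 libraries, PC3 resistant library 1, at 0.180 CPM.

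The libraries held 62513103 to 72530254 counts and 25695 to 26401 genes with a count. CPM is a count scaled to the library's total after TMM normalisation. FPKM, the authors' value, also divides by a length for each gene and is the one scale on which different genes are compared. Set against CPM, that length was near all annotated exon bases of the gene, such as 24359 for ZEB2 and 7191 for ELF3. It can exceed the length of a single transcript, so the order of genes per length depends in part on the annotation. Mitochondrial genes took 3.98 to 4.30% of the counts in parental DU145, 7.04 to 7.14% in resistant DU145, 5.68 to 6.04% in parental PC3 and 3.46 to 3.55% in resistant PC3. PC3 resistant library 1 stood apart from its group, since its comparisons with the other libraries of the group gave a mean chi-square over genes of 37.1 and 37.2, and theirs with each other 17.9. The calls of the members in PC3 resistance numbered 6 with and 6 without that library, and the values that rest on it are given beside each gene. The keratins KRT8 and KRT18 were present in every group, at 392 ± 15.8 and 291 ± 6.79 CPM (SD, n = 3) in parental DU145 and 243 ± 2.47 and 211 ± 12.1 in parental PC3. In RNA from bulk cultures, fewer cells that express a gene and less RNA of it per cell cannot be told apart.

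Of the 10 members, 8 passed the filter on low counts and were tested, and GRHL2 and OVOL2 did not pass. In DU145 resistance 5 of the 8 were called higher and 2 lower at an adjusted p under 0.05 in edgeR's quasi-likelihood test. Of the 24128 genes tested, 39.6% were called there, 18.9% higher and 20.7% lower. In PC3 resistance 4 were called higher and 2 lower, beside 44.0% of all genes tested, 22.4% higher and 21.6% lower. The median log2 change of the 8 was 1.12 in DU145, or 1.40 with TWIST1 left out because both groups were at the floor, and 0.81 in PC3, beside a median of 0 over all genes tested in both. In each line the CPM of the 3 resistant libraries did not overlap that of the 3 parental libraries for 7 of the 10 members, where 51.2% of all tested genes in DU145 and 54.4% in PC3 were so separated. SNAI2 and ESRP1 were called higher in both resistant lines. ZEB1, ZEB2, GRHL1 and ELF3 were called in both lines and in opposite directions.

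**Figure D1:**
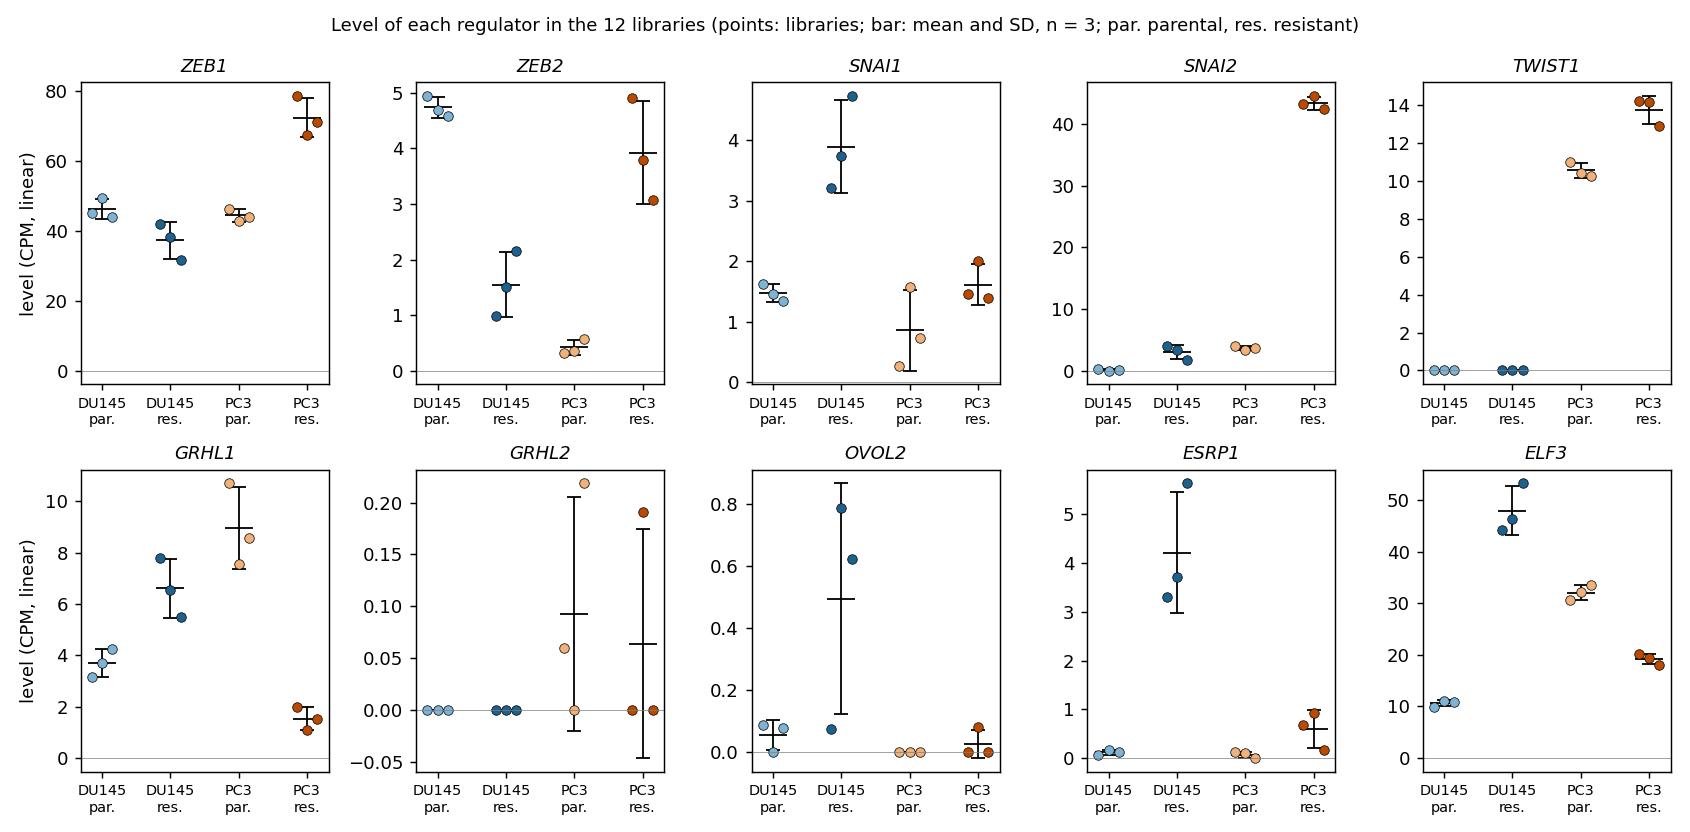
Level of each of the 10 regulators in CPM (vertical axis, linear, a separate scale per gene) in the 12 libraries, grouped along the horizontal axis as parental and resistant DU145 and PC3; points are libraries and bars the mean and SD of 3. SNAI2 lies between 42.4 and 44.5 CPM in resistant PC3 and under 5 CPM elsewhere, TWIST1 is present in PC3 libraries, and GRHL2 and OVOL2 stay below 1 CPM throughout.

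ZEB1 (ENSG00000148516, chromosome 10, 31318495 to 31529813, plus strand, GRCh38) was the more abundant of the ZEB messengers per length in every group. Its level was 45.2, 49.4 and 44.0 CPM in the parental DU145 libraries and 42.1, 38.3 and 31.6 CPM in the resistant ones. It was 46.4, 42.8 and 44.1 CPM in parental PC3 and 78.6, 67.5 and 71.2 CPM in resistant PC3. The resistant PC3 libraries were thus above all others, the resistant DU145 libraries were below their parental ones, and the parental lines overlapped. ZEB1 fell by 0.31 on the log2 scale in DU145 resistance (SE 0.09, adjusted p = 0.0135, edgeR), 1.24-fold, and this call was lost without parental library 2 (log2 change -0.25, adjusted p = 0.0719, edgeR) or resistant library 3 (-0.20, adjusted p = 0.0781). In PC3 resistance it rose 1.63-fold (log2 change 0.70 ± 0.09 SE, adjusted p = 9.1e-06, edgeR), and without PC3 resistant library 1 the log2 change was 0.64.

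Several start sites of ZEB1 are annotated, and 7 windows of 300 bases around them (250 before to 50 after the start, RefSeq, GRCh38.p14) were searched for CAGGTG, the E-box that ZEB and Snail factors are known to bind, on both strands, where its other strand reads CACCTG. It occurred in 2 of the 7. One window held 3 copies, at -242, -85 and 34 relative to the start, and is printed because it held the most copies among the 10 windows searched, which cover ZEB1, ZEB2, GRHL1 and ELF3, with the copies in capitals:
ZEB1 chr10:31318966-31319265, plus strand: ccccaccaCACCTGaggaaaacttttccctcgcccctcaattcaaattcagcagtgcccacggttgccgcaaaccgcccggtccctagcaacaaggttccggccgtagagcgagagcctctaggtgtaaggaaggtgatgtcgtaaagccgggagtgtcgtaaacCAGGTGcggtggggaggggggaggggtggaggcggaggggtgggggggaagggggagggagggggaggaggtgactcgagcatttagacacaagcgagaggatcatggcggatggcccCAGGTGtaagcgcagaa
Of 35116 promoter windows of this length, 20.6% held CAGGTG at least once.

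ZEB2 (ENSG00000169554, chromosome 2, 144364364 to 144520400, minus strand), the paralog of ZEB1, read 4.94, 4.69 and 4.58 CPM in parental DU145 and 0.979, 1.51 and 2.15 CPM in resistant DU145. In parental PC3 it read 0.325, 0.359 and 0.577 CPM, and in resistant PC3 4.91, 3.79 and 3.07 CPM. Resistant PC3 thus overlapped the range of parental DU145, parental PC3 was lowest, and within each line the groups were separate. ZEB2 fell by 1.61 on the log2 scale in DU145 (SE 0.34, adjusted p = 0.00106, edgeR), 3.06-fold. It rose 9.33-fold in PC3 (log2 change 3.22 ± 0.37 SE, adjusted p = 2.1e-06, edgeR; 3.03 without PC3 resistant library 1). Per length ZEB2 was a minor messenger in every group: its mean was 0.186 FPKM in parental DU145 and 0.145 FPKM in resistant PC3, where ZEB1 had 5.49 and 8.11 FPKM. The single ZEB2 promoter window in the RefSeq table held no CAGGTG and 1 copy of CCGTTA (other strand TAACGG), a core known to be bound by OVOL factors, which 3.07% of all windows held.

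SNAI1 (ENSG00000124216, chromosome 20, 49982980 to 49988886, plus strand) was low in every group. It read 1.63, 1.46 and 1.34 CPM in parental DU145 and 3.21, 3.75 and 4.73 CPM in resistant DU145. It read 0.266, 1.58 and 0.733 CPM in parental PC3 and 1.45, 2.01 and 1.39 CPM in resistant PC3. The DU145 groups were separate and the PC3 groups overlapped through parental library 2. SNAI1 was called higher in DU145 resistance (log2 change 1.40 ± 0.47 SE, adjusted p = 0.0255, edgeR; 2.64-fold), and the call was lost without parental library 1, 2 or 3 or resistant library 3, with adjusted p from 0.0533 to 0.0856 in edgeR. In PC3 the log2 change was 0.91 ± 0.47 SE (adjusted p = 0.135, edgeR; 0.99 without PC3 resistant library 1), and without parental library 2 it was 1.70 (adjusted p = 0.00661, edgeR).

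SNAI2 (ENSG00000019549, chromosome 8, 48917598 to 48921440, minus strand) was called higher in both resistant lines from different starting levels. It read 0.260, 0.0601 and 0.231 CPM in parental DU145, which is 18, 4 and 15 counts, and 4.10, 3.39 and 1.82 CPM in resistant DU145. In parental PC3 it read 4.07, 3.45 and 3.81 CPM, and in resistant PC3 43.2, 44.5 and 42.4 CPM. Resistant DU145 and parental PC3 overlapped in the middle of this order, with parental DU145 below and resistant PC3 above every other library. The rise was 16.9-fold in DU145 (log2 change 4.06 ± 0.36 SE, adjusted p = 6.9e-07, edgeR) and 11.5-fold in PC3 (3.52 ± 0.28 SE, adjusted p = 1.5e-07; 3.53 without PC3 resistant library 1). The difference of these changes, PC3 minus DU145, was -0.54 ± 0.46 SE on the log2 scale and was not called (adjusted p = 0.40, edgeR). On log2(FPKM + 1), where low levels are compressed, it was 1.82 and called by limma (adjusted p = 3.4e-06), so which line changed more depends on the scale.

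TWIST1 (ENSG00000122691, chromosome 7, 19020991 to 19117118, minus strand in the files' gene model) separated the lines. The parental DU145 libraries held 3, 0 and 0 counts and the resistant ones 0, 0 and 0. It read 11.0, 10.4 and 10.3 CPM in parental PC3 and 14.2, 14.2 and 12.9 CPM in resistant PC3. Both DU145 groups were thus at or under the floor of 3 counts over the group, so no fold is given between them, while the PC3 libraries held 657 to 949 counts. Parental PC3 exceeded parental DU145 by a ratio of 707 in summed counts, with an exact 95% interval of 242 to 3431 that covers counting error only, and resistant PC3 was at least 905-fold above resistant DU145 against the floor. In PC3 resistance the libraries did not overlap, and TWIST1 was not called (log2 change 0.38 ± 0.27 SE, adjusted p = 0.281, edgeR; 0.36 without PC3 resistant library 1). It was called where the 2 PC3 groups were fitted alone (0.38, adjusted p = 0.0181, edgeR). Its paralog TWIST2 was present in both lines, at 11.2 ± 1.62 and 3.57 ± 0.546 CPM (SD, n = 3) in parental and resistant DU145 and 2.57 ± 0.446 and 0.986 ± 0.291 in parental and resistant PC3, and was called lower in both resistant lines.

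On the epithelial side, ELF3 (ENSG00000163435, chromosome 1, 202007945 to 202017183, plus strand) is an ETS factor of simple and secretory epithelia. It read 9.97, 11.1 and 10.8 CPM in parental DU145 and 44.1, 46.4 and 53.2 CPM in resistant DU145. It read 30.6, 32.1 and 33.5 CPM in parental PC3 and 20.1, 19.3 and 18.1 CPM in resistant PC3. No group overlapped another, in the order resistant DU145, parental PC3, resistant PC3, parental DU145. ELF3 rose by 2.18 on the log2 scale in DU145 (SE 0.09, adjusted p = 3.2e-11, edgeR) and fell by 0.74 in PC3 (SE 0.09, adjusted p = 3.3e-06), 1.67-fold, or by 0.77 without PC3 resistant library 1. Of the 7191 exon bases of ELF3 in GENCODE v29, 1328 were shared with ELF3-AS1 or a sense intronic transcript, and the strand setting of the counting is not given in the sources used here. In the same annotation ZEB1 shared 366 of 8650 exon bases with other genes, ZEB2 797 of 24359 and TWIST1 141 of 2033, while SNAI1, SNAI2, GRHL1 and ESRP1 shared none. In the deposited gene models AC010969, on the minus strand, overlapped the span of GRHL1, and sharing of exon bases was not computed for those models. ELF3-AS1 read 11.0 ± 1.12 and 9.31 ± 0.763 CPM (SD, n = 3) in parental and resistant DU145 and was not called in either line. The ELF3 promoter window held 1 copy of CAGGTG, read on the other strand, at -120, in capitals below, and is printed as the epithelial counterpart of the ZEB1 window:
ELF3 chr1:202010337-202010636, plus strand: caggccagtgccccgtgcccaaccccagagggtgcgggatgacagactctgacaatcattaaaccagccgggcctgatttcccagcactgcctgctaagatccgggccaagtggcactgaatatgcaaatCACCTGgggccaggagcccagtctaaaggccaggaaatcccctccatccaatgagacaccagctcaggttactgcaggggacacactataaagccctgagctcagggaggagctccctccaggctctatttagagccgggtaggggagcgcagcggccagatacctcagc

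GRHL1 (ENSG00000134317, chromosome 2, 9951693 to 10002277, plus strand), a Grainyhead-like activator of desmosomal genes, read 3.16, 3.71 and 4.23 CPM in parental DU145 and 7.79, 6.55 and 5.50 CPM in resistant DU145. In parental PC3 it read 10.7, 7.56 and 8.58 CPM, and in resistant PC3 1.99, 1.10 and 1.52 CPM. Parental PC3 and resistant DU145 overlapped at the top, and resistant PC3 was below every other library. GRHL1 rose 1.79-fold in DU145 (log2 change 0.84 ± 0.24 SE, adjusted p = 0.0117, edgeR), a call lost without parental library 1 (adjusted p = 0.0526) or resistant library 1 (adjusted p = 0.0603). It fell by 2.54 on the log2 scale in PC3 (SE 0.26, adjusted p = 6.0e-07, edgeR), 5.83-fold, and by 2.77 without PC3 resistant library 1. Its promoter window held no CAGGTG.

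ESRP1 (ENSG00000104413, chromosome 8, 94641074 to 94707466, plus strand), the epithelial splicing regulator, held 4, 11 and 8 counts in parental DU145 and 219, 241 and 372 counts in resistant DU145. It held 8, 6 and 0 counts in parental PC3 and 46, 58 and 11 counts in resistant PC3. The resistant libraries of each line were above their parental ones, the lowest being PC3 resistant library 3. ESRP1 rose 36.6-fold in DU145 (log2 change 5.17 ± 0.81 SE, adjusted p = 7.5e-05, edgeR) and 8.35-fold in PC3 (3.02 ± 0.79 SE, adjusted p = 0.00524, edgeR; 2.88 without PC3 resistant library 1). On log2(FPKM + 1) the PC3 change was 0.14 and was not called (adjusted p = 0.242, limma). Genes with mean counts of 5 to 10 varied between libraries of a group with a variance 7.72 to 8.49 times their mean on average, so counts of this size are less precise than counting error alone gives. The mean of ESRP1 was 0.0144 and 0.117 FPKM in parental and resistant PC3. The paralog ESRP2 had 9.19 and 10.2 FPKM in parental and resistant DU145 and 4.19 and 6.26 FPKM in parental and resistant PC3. ESRP2 was called higher in PC3 resistance (0.62 ± 0.08 SE, adjusted p = 7.5e-06, edgeR) and was not called in DU145.

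GRHL2 (chromosome 8, 101492439 to 101669726, plus strand) and OVOL2 (chromosome 20, 17956979 to 18059188, minus strand) are factors known to hold cells epithelial by repressing ZEB1. GRHL2 held 0 counts in all 6 DU145 libraries, 4, 0 and 14 counts in parental PC3 and 0, 12 and 0 in resistant PC3. OVOL2 held 6, 0 and 5 counts in parental DU145, 5, 51 and 41 in resistant DU145, 0 in all parental PC3 libraries and 0, 5 and 0 in resistant PC3. The DU145 groups overlapped through resistant library 1. With no filter on low counts, OVOL2 had a log2 change of 3.13 ± 1.66 SE in DU145 resistance (adjusted p = 0.224, edgeR), and neither gene was called in any comparison over all 12 libraries. Leaving out 1 library let OVOL2 pass the filter and be called in 2 comparisons between lines: parental PC3 against parental DU145 without DU145 parental library 2, and resistant PC3 against resistant DU145 without PC3 resistant library 2.

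**Figure D2:**
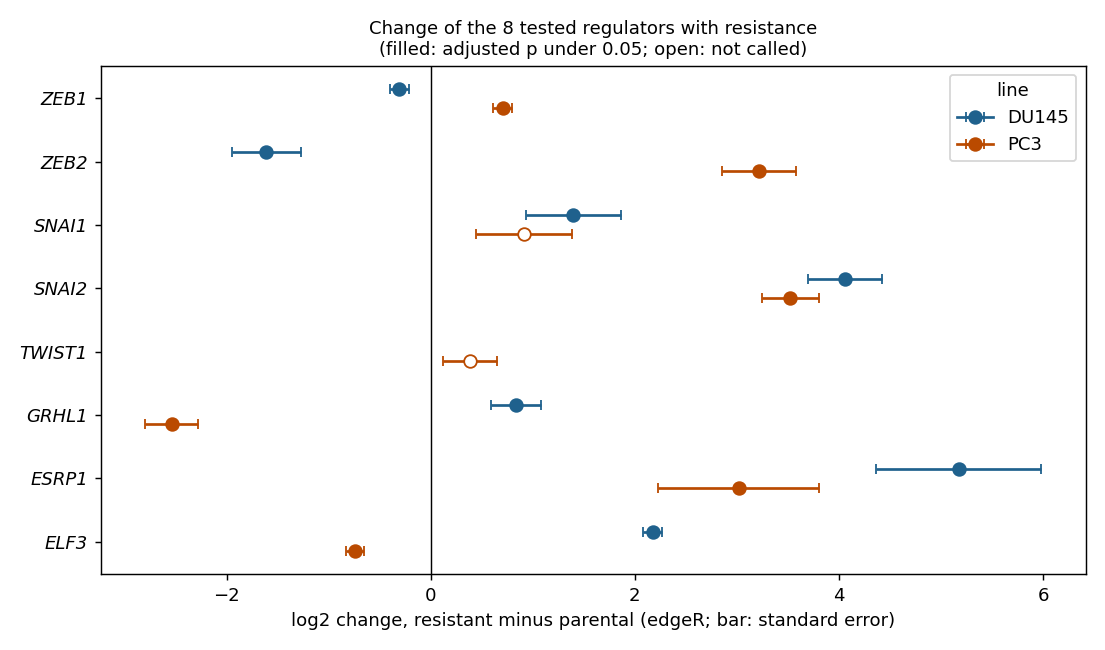
Log2 change of the tested regulators in resistance (horizontal axis, resistant minus parental, edgeR) in DU145 (blue) and PC3 (orange); bars are standard errors and filled points had an adjusted p under 0.05. ZEB1, ZEB2, GRHL1 and ELF3 lie on opposite sides of 0 in the lines, SNAI2 and ESRP1 on the same side, and TWIST1 in DU145 is left out because both groups were at or under 3 counts.

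The difference between the lines was tested by the interaction of line and resistance, which called 42.1% of all genes, 22.1% higher in PC3 and 20.0% lower. It was called for 4 of the 8 tested members: ZEB1 (PC3 minus DU145, log2 difference of changes 1.01 ± 0.13 SE, adjusted p = 8.9e-06, edgeR), ZEB2 (4.83 ± 0.50 SE, adjusted p = 8.0e-07), GRHL1 (-3.38 ± 0.35 SE, adjusted p = 9.7e-07) and ELF3 (-2.92 ± 0.13 SE, adjusted p = 4.4e-11). The ZEB genes thus rose in PC3 relative to DU145 and the epithelial factors GRHL1 and ELF3 fell. For SNAI1 and ESRP1 the differences were -0.48 ± 0.66 SE (adjusted p = 0.622) and -2.16 ± 1.10 SE (adjusted p = 0.134) and were not called in edgeR. CDH1, the target that defines the switch, read 3.81 ± 0.682 and 74.3 ± 3.71 CPM (SD, n = 3) in parental and resistant DU145, and 9.94 ± 2.46 and 1.03 ± 0.561 in parental and resistant PC3. Its difference of changes was -7.57 ± 0.45 SE (adjusted p = 1.1e-07, edgeR). The mesenchymal filament gene VIM was called lower in both resistant lines, from 1417 ± 13.2 to 1226 ± 43.1 CPM in DU145 and from 1049 ± 29.4 to 688 ± 16.3 in PC3.

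Between the lines, parental PC3 was higher than parental DU145 for 4 of the 8 tested members (SNAI2, TWIST1, GRHL1 and ELF3) and lower for ZEB2, beside 60.3% of all genes called, 30.9% higher and 29.5% lower. Both SNAI2 (20.6-fold) and ELF3 (3.02-fold), factors on opposite sides of the switch, were thus higher in parental PC3. Between the resistant lines all 8 were called, beside 59.8% of all genes, 30.6% higher and 29.1% lower in PC3. ZEB1 (1.94-fold), ZEB2 (2.54-fold), SNAI2 (log2 difference 3.80) and TWIST1 were higher in PC3, and SNAI1 (2.41-fold), GRHL1 (4.31-fold), ESRP1 (7.15-fold) and ELF3 (2.50-fold) were higher in DU145. The SNAI1 call was lost without DU145 resistant library 3 or PC3 resistant library 1 or 3 (adjusted p from 0.0716 to 0.0843, edgeR).

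Per length, taken over all annotated exon bases as described above, the leading regulator differed by group. In parental DU145 it was ZEB1 at 5.49 ± 0.324 FPKM (SD, n = 3), with ELF3 at 1.52 ± 0.0936. In resistant DU145 ELF3 led at 6.73 ± 0.687 FPKM, with ZEB1 at 4.36 ± 0.600 and SNAI1 at 2.31 ± 0.464. In parental PC3 TWIST1 (5.26 ± 0.218 FPKM), ZEB1 (5.11 ± 0.223) and ELF3 (4.44 ± 0.183) were close, and the TWIST1 and ZEB1 libraries overlapped. In resistant PC3 SNAI2 led at 12.8 ± 0.348 FPKM, ahead of ZEB1 at 8.11 ± 0.580 and TWIST1 at 6.67 ± 0.338, and ELF3 was at 2.58 ± 0.128.

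**Figure D3:**
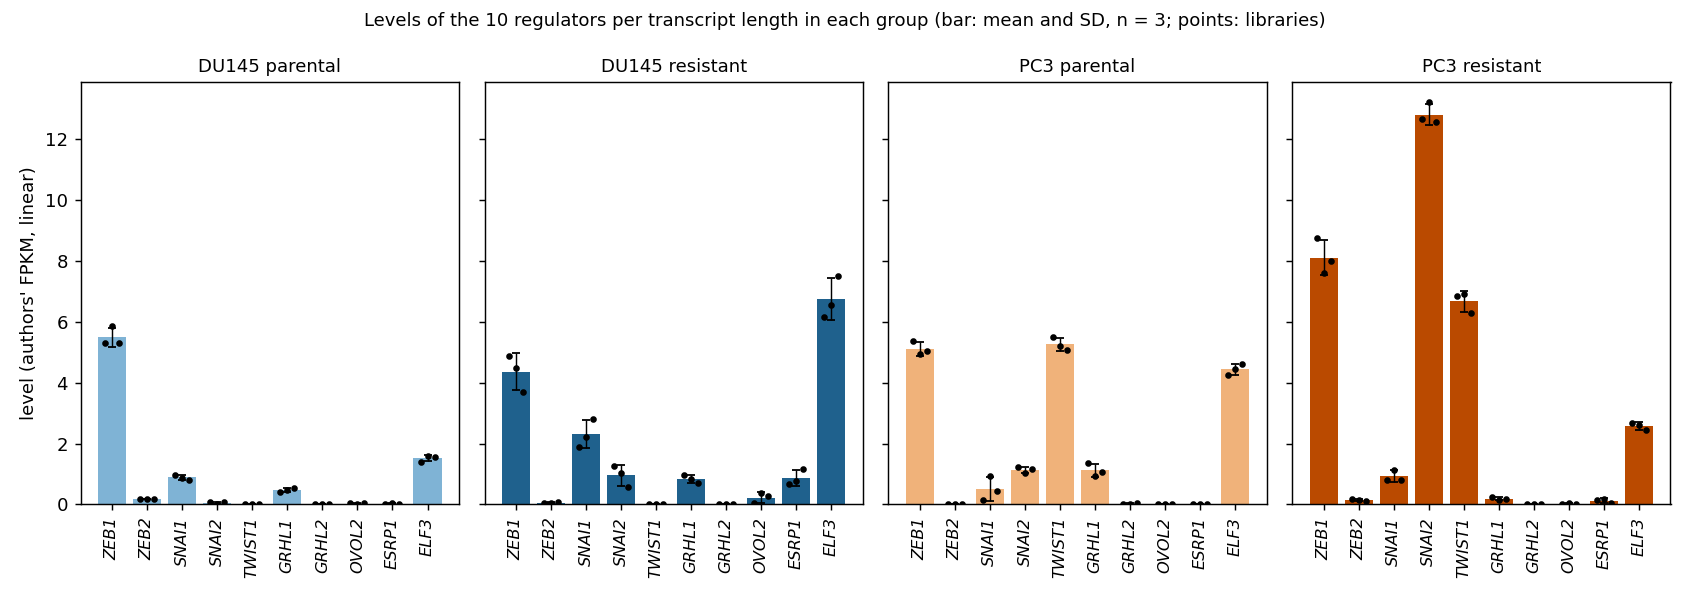
Mean level of the 10 regulators in the authors' FPKM (vertical axis, linear, shared from 0) in each group; bars are the mean and SD of 3 libraries and points the libraries. ZEB1 is the tallest bar in parental DU145, ELF3 in resistant DU145 and SNAI2 in resistant PC3 at 12.8 FPKM, while TWIST1, ZEB1 and ELF3 lie between 4.25 and 5.50 FPKM in every parental PC3 library.

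Over all genes tested, 18.9% were called higher and 20.7% lower in DU145 resistance and 22.4% and 21.6% in PC3 resistance. Of 27 epithelial adhesion and junction genes, 18 were called higher and 4 lower in DU145 resistance (median log2 change 0.97), and 6 higher and 15 lower in PC3 resistance (median -0.50), with medians of 0 over all genes. In DU145 the desmosomal linker DSP rose from 0.835 to 191 mean CPM (229-fold), CDH1 19.5-fold and the desmosomal cadherin DSC2 8.99-fold, while CRB3, a polarity protein of the apical membrane, fell by 4.06 on the log2 scale. In PC3 CRB3 fell by 4.50 on the log2 scale, CDH1 by 3.29 and the tight junction scaffold TJP3 by 3.18. CRB3 was thus called lower in both lines, in PC3 on low counts: 50, 40 and 160 in the parental and 0, 0 and 11 in the resistant libraries. Among 15 genes of epithelial trafficking and membrane proteolysis, 8 were called higher and 3 lower in DU145 (median 0.34) and 4 higher and 6 lower in PC3 (median 0.00). The PC3 median was 0.24 with BSPRY left out because both PC3 groups held 0 counts of it. In DU145 AP1M2, a subunit of the basolateral sorting adaptor, fell by 4.80 on the log2 scale, from 10.7 to 0.381 mean CPM, while SPINT1, a protease inhibitor, rose 19.3-fold, ANK3 18.5-fold and the membrane protease gene ST14 15.0-fold. The folds of ANK3 and ST14 rest on low parental counts: 0, 4 and 8 for ANK3 and 0, 64 and 11 for ST14. ANK3 reached 1.13 mean CPM in resistant DU145. For ST14 the log2 change was 3.90 ± 1.33 SE (adjusted p = 0.039, edgeR). In PC3 the receptor ERBB3 fell 6.55-fold and SPINT1 by 1.06 on the log2 scale, while SPINT2 rose 1.97-fold and EXPH5 1.74-fold. The list thus held called genes in both directions in each line.

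Of 22 mesenchymal structural genes, 3 were called higher and 13 lower in DU145 (median log2 change -1.15), and 8 higher and 10 lower in PC3 (median -1.15). The shares over all tested genes were 18.9% higher and 20.7% lower in DU145 and 22.4% and 21.6% in PC3. In DU145 fibronectin (FN1) fell from 285 to 31.2 mean CPM, COL1A2 7.67-fold and FBN1 4.82-fold, and COL6A2 rose 4.17-fold. In PC3 the matrix genes fell too: SPARC from 159 to 1.19 mean CPM, COL5A1 from 31.2 to 1.14, COL3A1 9.51-fold and the collagen crosslinking enzyme LOX 9.10-fold. Fibroblast and smooth muscle markers, which share COL1A1, COL1A2, ACTA2 and PDGFRB with this list, summed to 122 to 129 CPM in parental PC3 and 14.8 to 21.4 in resistant PC3, and to 24.2 to 39.4 and 6.39 to 11.6 CPM in parental and resistant DU145, with DES at 0 in 3 of the 4 groups. Their part in the list's values was not tested.

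Of 13 other epithelial transcription factors in the files, 11 were tested: 6 were called higher and 2 lower in DU145 (median 0.96), and 3 higher and 4 lower in PC3 (median -0.04). In DU145 TFAP2C rose from 0.164 to 12.4 mean CPM, KLF4 2.77-fold and the prostate pioneer factor FOXA1 1.94-fold. In PC3 FOXA1 fell 2.63-fold and the ELF3 relative EHF 2.47-fold. KLF5 went the other way, from 86.9 to 67.7 mean CPM in DU145 and from 73.9 to 112 in PC3, without overlap of libraries. EHF was also lower in resistant DU145, at 0.660 and 0.0661 mean CPM in the parental and resistant groups. FOXA1 was called in both lines in opposite directions, as ELF3 and GRHL1 were. Of 18 other mesenchymal transcription factors in the files, 17 were tested: 5 were called higher and 4 lower in DU145 (median 0.04), and 5 higher and 8 lower in PC3 (median -0.59). The shares in DU145, 5 and 4 of 17, were near the 18.9% and 20.7% of all tested genes, and those in PC3 stand beside 22.4% and 21.6%. SOX4 rose 5.89-fold, FOXC1 3.35-fold and HMGA2 2.62-fold in DU145, where TWIST2 fell 3.15-fold. In PC3 LEF1 rose from 0.0780 to 3.71, TBX3 from 32.6 to 86.6 and FOXQ1 from 0.612 to 3.12 mean CPM, and TWIST2 fell 2.60-fold. The other 7 called lower in PC3 had smaller changes or stayed under 1 CPM in both groups.

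Among 12 other splicing factors of the switch, 5 were called higher and 3 lower in DU145 (median 0.13), and 9 higher and 2 lower in PC3 (median 0.45). All tested genes gave 18.9% higher and 20.7% lower in DU145 and 22.4% and 21.6% in PC3. RBM47, an epithelial RNA-binding protein, rose 19.1-fold to 12.8 mean CPM in DU145 and fell 9.73-fold to 0.158 in PC3. RBFOX2 and QKI, which favour mesenchymal splice forms, fell by 0.62 and 0.55 on the log2 scale in DU145. In PC3 RBFOX2 rose by 0.55 and QKI fell by 0.19, while MBNL2 rose 1.82-fold and SRSF1 1.51-fold. Of 11 tested genes known as ESRP splicing targets, 3 were called higher and 6 lower in DU145 and 3 higher and 5 lower in PC3. The total CD44 messenger rose 6.56-fold in DU145 and 7.27-fold in PC3, to 1766 ± 71.2 and 2383 ± 70.6 CPM (SD, n = 3), and splice forms were not analysed here.

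**Figure D4:**
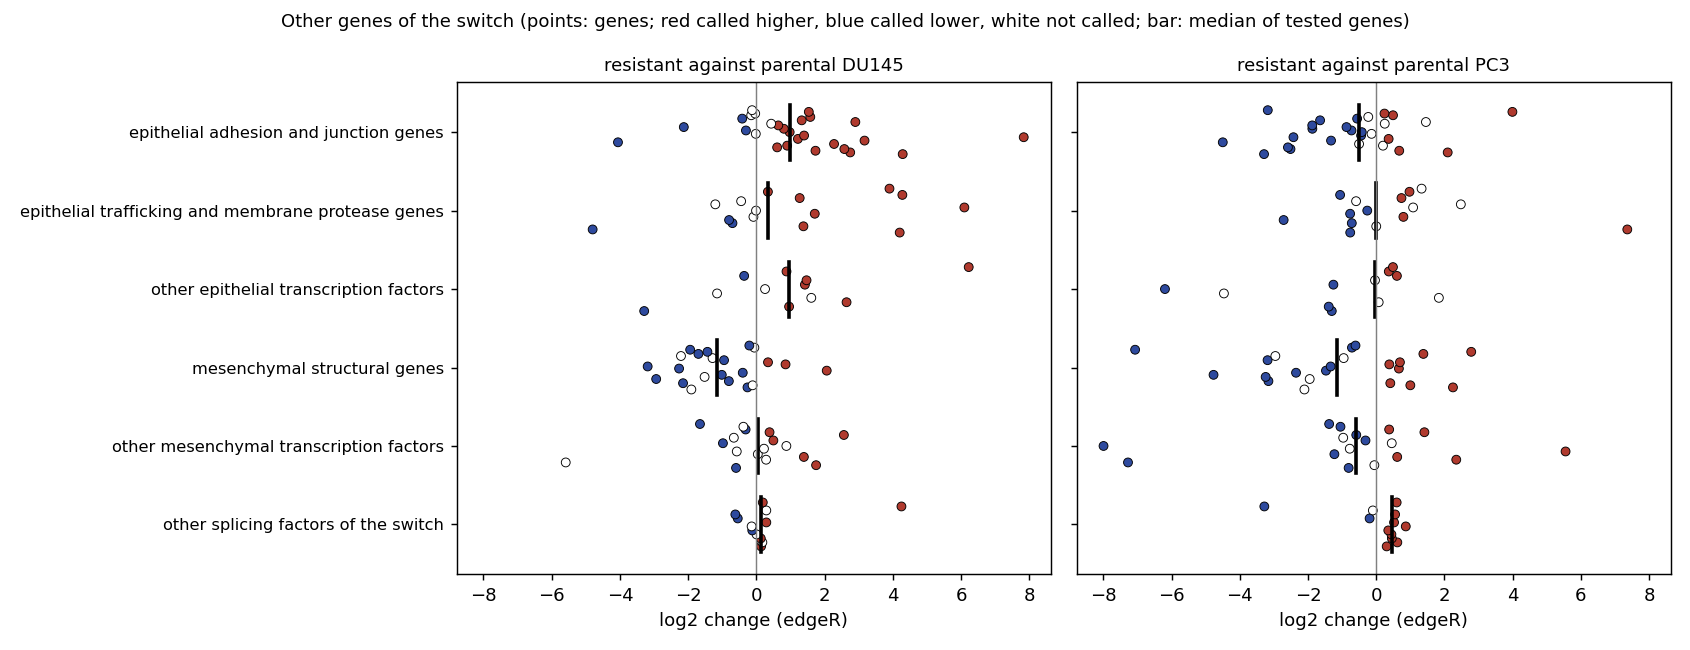
Log2 change in resistance (horizontal axis, edgeR, shared scale) of the genes of 6 lists, in DU145 (left) and PC3 (right); each point is a gene, red called higher, blue called lower and white not called, and the black bar is the median of the tested genes (for genes with a group at 0 counts the fitted value is no bound). The epithelial adhesion and junction genes have a median of 0.97 in DU145 and -0.50 in PC3, and the mesenchymal structural genes -1.15 in both.

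Of 18 corepressors of the ZEB and Snail factors, 7 were called higher and 7 lower in DU145 (median 0.04) and 9 higher and 6 lower in PC3 (median 0.12), where all tested genes gave 18.9% higher and 20.7% lower in DU145 and 22.4% and 21.6% in PC3. AJUBA, a LIM adaptor of the Snail factors, rose 2.07-fold in DU145 and 1.94-fold in PC3, and the deacetylase gene SIRT1 1.47-fold and 1.81-fold. Of 17 genes for enzymes and partners that set the stability or activity of the Snail and ZEB proteins, 6 were called higher and 9 lower in DU145 (median -0.24) and 5 higher and 9 lower in PC3 (median -0.25). LOXL2, which stabilises Snail, rose 2.45-fold and 1.72-fold, and the phosphatase gene CTDSP1 fell 2.06-fold in PC3. Of 11 microRNA host and antisense genes in the files, 4 were tested, and SNAI3-AS1 in DU145 was the single call (2.15-fold higher).

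Genes whose pattern was most like a member's were named by Pearson r of log2 CPM over the 12 libraries, among 12202 genes with a mean of at least 5 CPM. The 12 libraries fall into 4 groups, so r reflects mostly 4 group means and is given as a description. For SNAI2 the closest were SNX21 (r = 0.990), NRIP1 (0.987) and TPD52L2 (0.987), whose levels rose less: NRIP1 read 143, 219, 208 and 359 mean CPM in parental and resistant DU145 and parental and resistant PC3. For ZEB1 they were PLCXD2 (0.980), ZBTB21 (0.973) and PPP2R1B (0.969), and for TWIST1 TENM3 (0.999), CDKN2AIP (0.999) and SLITRK4 (0.999), which for TENM3 and SLITRK4 means near absence from DU145. For GRHL1 they were MIDEAS (0.971), ATP8B1 (0.968) and MED28 (0.963). For ELF3 they were the mitochondrial genes MT-ND4 (0.987) and MT-ND1 (0.983) and the NF-kappaB inhibitor gene NFKBIA (0.983). The mitochondrial share of counts given above thus had the same order over the 4 groups as ELF3 save for parental DU145 and resistant PC3, and its part in the ELF3 values was not tested. Of the markers of other cell types, the leukocyte gene PTPRC held 0 counts in all DU145 libraries, 13, 9 and 8 counts in parental PC3 and 9, 0 and 6 in resistant PC3. The T cell gene CD3E held 10 counts in DU145 resistant library 2 and 0 in the other 11 libraries. The summed CPM of 6 leukocyte markers ran from 16.0 to 86.9, most of it CD68, which was called higher in both resistant lines. The 8 endothelial markers summed to 0.246 to 1.52 CPM in DU145 and 55.0 to 233 CPM in PC3. Of the 6 tested, 2 were called higher and 1 lower in PC3 resistance and none in DU145 resistance (edgeR, 1 with an unadjusted p under 0.05). Over all tested genes 44.0% were called in PC3 resistance and 39.6% in DU145 resistance. KDR fell from 178 ± 30.2 to 40.8 ± 8.87 CPM (SD, n = 3) in PC3, PECAM1 rose from 18.3 ± 0.769 to 27.3 ± 3.97, and VWF, named after its values were seen, went from 0 to 48 summed counts with overlapping libraries. ERG was at 0 in both PC3 groups. The part of these markers in the members' values was not tested.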

How the data were processed

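Gene-level counts and FPKM of 12 libraries, 3 in each of 4 groups, were used as deposited by the authors, 1 table per library. Per the labels' protocols, poly(A) RNA was made into dUTP-marked paired-end libraries. Tools listed in the submitters' processing notes, in no stated order, are StringTie 1.3.4d, HISAT2 2.0.4, cutadapt 1.9, edgeR and DESeq2, with the build hg18. The coordinates are those of GRCh38: of 37385 genes also in GENCODE v29, 37377 overlapped their position there. Which program counted reads, and with which strand setting and annotation, is not given in the sources used here.

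Counts were tested with edgeR 4.0.16 (quasi-likelihood, TMM, filterByExpr, 24128 genes) in R 4.3.3, in 1 fit over the 4 groups with 8 residual degrees of freedom and Benjamini-Hochberg adjustment over all genes tested. The script was tested on simulated data. Alternatives were DESeq2 1.42.0 (its size factors and its Wald test), upper quartile scaling, no low-count filter, at least 1 CPM in 3 libraries, a fit of the compared groups alone, a replicate block, limma 3.58.1 on log2(FPKM + 1) and log2(FPKM + 0.1), and leaving out each library. The members and gene lists were chosen with earlier results of these data known. Beside the members, CDH1 and VIM, the text names up to 4 genes per list and line with the largest called change and a mean of at least 1 CPM in 1 group. It also names the 3 genes most like each member with a mean of at least 5 CPM in 1 group. The other names (TWIST2 in all groups, ESRP2, KRT8, KRT18, KLF5, EHF in DU145, BSPRY, KDR, CD44 levels, host genes) were chosen after their values were seen. Some genes that this rule names are not reported here. A floor of 3 counts over a group stands for 0.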

Additional observations from a re-analysis of the deposited data

Results flagged for a closer look

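For 4 members the change in resistance differed between the lines by the interaction test in edgeR, which called 42.1% of all genes. The log2 change in PC3 minus that in DU145 was 1.01 for ZEB1 and 4.83 for ZEB2. It was -3.38 for GRHL1 and -2.92 for ELF3. All 4 were called with each library left out in turn and under the other settings tried.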

How the results depend on the processing

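The counts of called members kept within 1.5 times the reported ones under every alternative but 1: with limma on log2(FPKM + 1) the interaction called 7 members in place of 4, among them SNAI2, whose difference of changes turned from -0.54 to 1.82. With libraries left out in turn the called members numbered 5 to 7 in DU145 resistance, 6 to 7 in PC3 resistance, 5 to 6 between parental lines, 7 to 9 between resistant lines and 4 to 5 for the interaction. Upper quartile scaling moved the median over all genes between the resistant lines from -0.01 to -0.12. Of the single-gene values under the alternatives, 807 kept their direction and side of the threshold, 12 lost a call, 10 gained one and 1 turned. Same-numbered libraries did not deviate together (r from -0.11 to 0.07), so the numbers were not taken as pairs, and a replicate block gave 7, 6, 5, 8 and 4 called members, the reported counts. Calls on SNAI1, ZEB1 and GRHL1 in DU145 were near the threshold. Each was lost when 1 of the libraries named with that gene above was left out, although the parental and resistant libraries did not overlap. Calls on ESRP1, ZEB2 and SNAI2 rest on low counts in at least 1 group.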
